A study of Mus musculus with 12 samples.

Results

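The ribosomal protein genes of the mouse are described here from the gene models deposited with the RNA-seq data of a cocaine study. Members were chosen by gene name alone: names built as Rpl or Rps and a number, with the letters a, l, x or y where the name carries them, and the stalk proteins Rplp0, Rplp1 and Rplp2. The rule found 82 genes, each at a locus of its own, among 35984 gene names at loci. Of these, 50 encode proteins of the large ribosomal subunit and 32 proteins of the small subunit. They comprise 74 genes of the core ribosome and 8 paralogs (Rpl10l, Rpl22l1, Rpl36al, Rpl39l, Rpl3l, Rpl7l1, Rps27l and Rps4y2). Together they carried 319 of the 87740 transcripts of the models.

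The study sequenced polyadenylated RNA from the nucleus accumbens, a brain reward region, of C57BL/6 mice, in 12 pools of tissue. There were 3 pools of each of 4 groups: repeated cocaine (7 days of cocaine at 20 mg/kg), repeated saline (7 days of saline), acute cocaine (6 days of saline and 1 day of cocaine at 20 mg/kg) and acute saline (7 days of saline). All were taken 24 h after the last injection, each pool held 3 to 5 animals, and a label field gives 8 to 10 weeks for every pool. The models are 1 set for all pools and carry no value of any pool. Every value given here is therefore a property of the annotation, with no replicate, no read depth and no test, and neither a change with cocaine nor the identity of the tissue was examined. Coordinates are those of the NCBIM37 (mm9) genome.

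Ribosomal proteins assemble with the ribosomal RNAs into the large and small subunits, which translate mRNA in every cell. Their mRNAs are known as a class that begins with a cytidine and a short run of pyrimidines, the 5′ terminal oligopyrimidine (TOP) tract, through which the mTOR pathway adjusts their translation together. Their introns are also known as a home of small nucleolar RNAs (snoRNAs). Those of box C/D guide methylation of the ribose in ribosomal RNA, and those of box H/ACA guide the conversion of uridine to pseudouridine. Both are cut out of the spliced intron, so that a single primary transcript can give a ribosomal protein and an RNA that modifies the ribosome.

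A gene is represented by its coding transcript of greatest exonic length, a coding transcript being one that carries a protein identifier in the models. This transcript existed for 81 of the 82 genes. Comparison values are given for 75 mitochondrial ribosomal protein genes, whose products serve the separate ribosome of the mitochondrion, and for 22476 other coding genes, which include the mitochondrial set.

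The ribosomal protein genes were short, and their exon numbers lay in a narrow range. Their longest coding transcripts had a median of 5 exons (interquartile range 4 to 6), against 5 (4 to 7) in mitochondrial ribosomal protein genes and 6 (3 to 12) in other coding genes. From 3 to 7 exons were found in 71 of 81 genes (87.7%), against 57 of 75 mitochondrial ribosomal protein genes (76.0%) and 34.4% of other coding genes. Exon number thus covered a narrower range in the ribosomal protein genes than in coding genes at large, around a similar median. The commonest numbers were 5 exons in 23 genes, 4 exons in 18 genes and 6 exons in 15 genes.

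**Figure D1:**
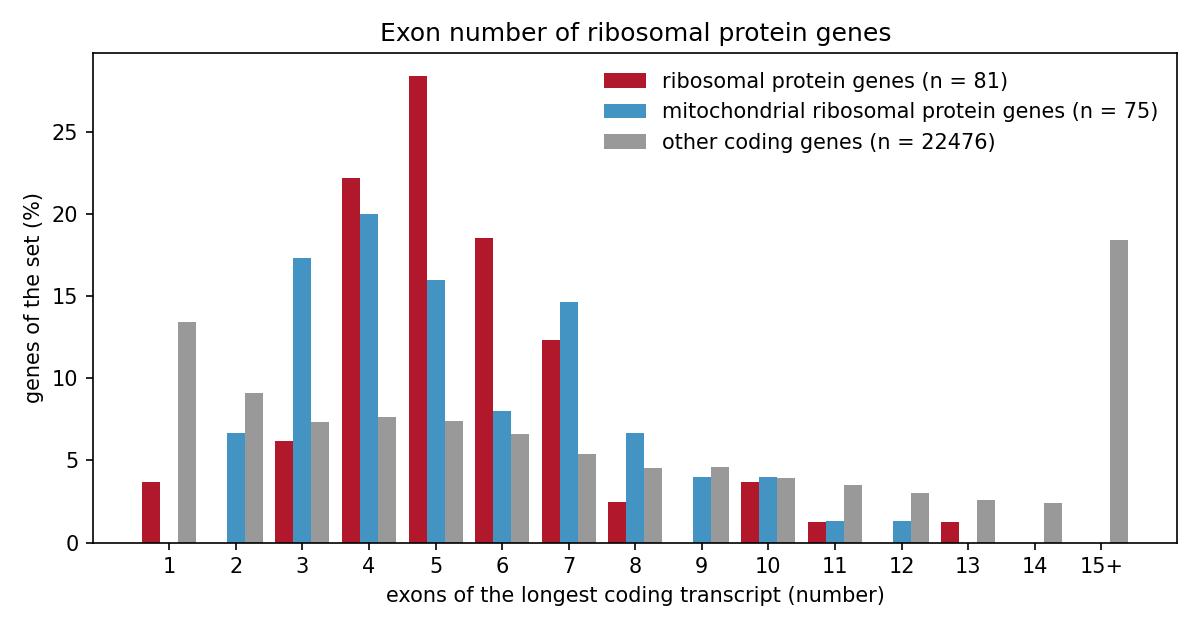
Share of genes (y axis, percent of each set) by the number of exons of the longest coding transcript (x axis, 15+ for 15 or more), for ribosomal protein genes (n = 81), mitochondrial ribosomal protein genes (n = 75) and other coding genes (n = 22476). The ribosomal protein genes crowd between 3 and 7 exons, where 71 of 81 lie.

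The genes of most exons were of different kinds. Rpl3, a core protein close to the peptidyl transferase centre, had 10 exons, as did its paralog Rpl3l, which is known from striated muscle. Rpl4, whose extension lines the exit tunnel of the nascent chain, also had 10. The counts of 13 in Rpl13a and 11 in Rpl24 came from models that extend beyond the other coding models of the gene. The longest coding model named Rpl24 spans 35110 bases (chr16:55973917-56009026) and shares no exon with the other 2 coding models of that name, which have 6 exons each. The longest coding model of Rpl13a spans 10310 bases, whereas another coding model of the gene has 8 exons within chr7:52380928-52384107. A further transcript with a protein identifier filed under Rpl13a carries the name Flt3l in GENCODE M1, an annotation of the same genome. GENCODE M1 gives it the nonsense-mediated decay type. Leaving out both genes left the median at 5 exons.

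At the other end, 3 of 81 genes (3.70%) had a longest coding transcript of a single exon, against no mitochondrial ribosomal protein gene and 13.4% of other coding genes. All 3 were paralogs. Rpl10l (chr12:67384368-67385388), known from the testis, and Rps4y2 (chr6:148303178-148304120) had 1 transcript of 1 exon each. Rpl36al (chr12:70283718-70285070) had 3 coding transcripts, of which the other 2 had 2 exons. No core gene had fewer than 3 exons.

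Paralogs were compared with the core genes they are named after. Rpl10l, Rpl36al and Rps4y2 had 1 exon each, against 6 in Rpl10, 5 in Rpl36a and 7 in Rps4x. The other pairs were closer: Rpl7l1 and Rpl7 had 7 exons each, Rpl39l and Rpl39 had 3 each, and Rps27l had 5, against 4 in Rps27. Rpl22l1 had 4 exons, and no coding transcript of Rpl22 was annotated to set against them. The first exon was 38 bases long in Rpl7l1, against 298 in Rpl7, and 97 bases in Rpl39l, against 278 in Rpl39. It was 90 bases in Rps27l, against 42 in Rps27, and 108 bases in Rpl22l1. The first exon of the paralog was thus the shorter or the longer of the pair in different cases.

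Introns were short as well. The 354 introns of the representative transcripts had a median length of 368 bases, against 1247 bases in mitochondrial ribosomal protein genes and 1321 bases in other coding genes. The genomic span had a median of 3084 bases, against 7654 and 14110.5 bases, and the exonic length a median of 862 bases, against 1213 and 2306 bases. The shortest span was that of Rpl36 (849 bases) and the shortest exonic length that of Rps28 (328 bases), while the longest exonic length was that of Rps15a (5130 bases). Single introns ran from 77 to 7852 bases. All but 3 introns began with GT and ended with AG. In Rpl37a an intron of 341 bases and in Rps27a, which encodes a fusion of ubiquitin with a small subunit protein, an intron of 417 bases began with GC. In Rps24 an intron of 2263 bases ended with CT.

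The first exons of the ribosomal protein genes were short. Their length had a median of 97 bases (interquartile range 65 to 203), against 168 bases (107 to 272.5) in mitochondrial ribosomal protein genes and 232 bases (128 to 452) in other coding genes. A first exon of 100 bases or fewer was found in 45 of 81 genes (55.6%), against 18 of 75 (24.0%) and 17.3%. Among genes of more than 1 exon the median was 93 bases, against 201 bases in other coding genes. Of these other coding genes, 19.9% had a first exon of 100 bases or fewer. Large and small subunit genes, single-exon genes included, were close in first exon length, with medians of 97 and 94.5 bases.

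**Figure D2:**
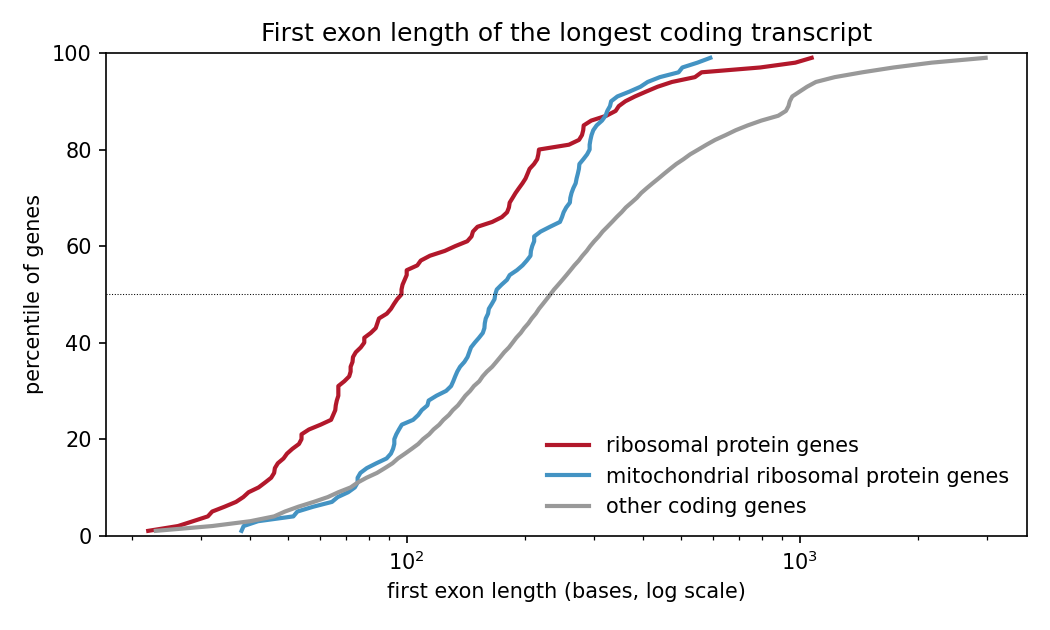
Percentile of genes (y axis) by length of the first exon of the longest coding transcript (x axis, bases, log scale), for ribosomal protein genes, mitochondrial ribosomal protein genes and other coding genes. At the 50th percentile (dotted line) the curves stand at 97, 168 and 232 bases.

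The 5 shortest first exons belonged to Rpl9 (10 bases), Rpl14 (25 bases), Rps9 (27 bases), Rps26 (31 bases) and Rps19 (32 bases). Rps19 is the gene most often mutated in Diamond-Blackfan anaemia. In Rpl9, Rps9 and Rps19 the length depended on the transcript: over the coding transcripts of each gene it ran from 5 to 68 bases in Rpl9, from 23 to 397 bases in Rps9 and from 32 to 297 bases in Rps19. Rpl14 and Rps26 had 1 transcript each. The 5 longest were those of the single-exon models of Rpl36al (1276 bases), Rpl10l (1021 bases) and Rps4y2 (943 bases), the far-reaching model of Rpl24 (568 bases) and Rpl35 (541 bases). All 39 genes with more than 1 coding transcript had first exons of more than 1 length. The matching share of other coding genes is not given here. With the shortest first exon of each gene the median was 66 bases.

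The 3 stalk proteins, which recruit elongation factors to the ribosome, differed among themselves. Rplp0, the scaffold of the stalk, had 7 exons and a first exon of 73 bases. Rplp1 had 3 exons and a first exon of 182 bases, and Rplp2 had 5 exons and a first exon of 338 bases.

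The start codon lay close to the end of the first exon. It was annotated for 78 genes of more than 1 exon, and was in the first exon in 51 of them (65.4%), against 62 of 75 mitochondrial ribosomal protein genes (82.7%) and 62.4% of other coding genes. The order of ribosomal protein genes and other coding genes depended on the transcript: from the transcript of most exons the shares were 57.0% (45 of 79) and 60.1%, from the transcript numbered 001 in GENCODE M1 58.2% (46 of 79) and 62.3%, and from that with the shortest first exon 57.9% (44 of 76) and 57.4%. Where it was in the first exon of the longest transcript, the first exon held a median of 6 coding bases in ribosomal protein genes (n = 51), against 81 (n = 62) and 97 (n = 11659). In 20 of 78 genes (25.6%) the ATG was the very end of the first exon and the intron followed at once, against 0 of 75 mitochondrial ribosomal protein genes and 1.11% of other coding genes. These were 13 large subunit genes (Rpl14, Rpl27a, Rpl3, Rpl35, Rpl36a, Rpl37, Rpl37a, Rpl38, Rpl39, Rpl3l, Rpl4, Rpl5 and Rpl7a) and 7 small subunit genes (among them Rps18, Rps20, Rps24, Rps25, Rps26 and Rps4x). A count of 20 was also obtained from the transcript of most exons, and from the transcript numbered 001 in GENCODE M1.

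The junctions of 8 of these genes are printed to show the start codon against the splice donor, with 15 bases of the first exon followed by 10 bases of the intron and the start codon in capitals. Rpl3 and Rpl3l are shown as paralogs, Rpl4 and Rpl5 as hosts of several snoRNAs, and Rps26 and Rpl14 as genes of very short first exons. The windows are chr15:79913744-79913768 (minus strand) for Rpl3, chr17:24864817-24864841 (plus) for Rpl3l, chr9:64021226-64021250 (plus) for Rpl4, chr5:108329651-108329675 (plus) for Rpl5, chr9:120480644-120480668 (plus) for Rpl14, chr10:128063522-128063546 (minus) for Rps26, chr17:34092553-34092577 (minus) for Rps18 and chrX:99384627-99384651 (minus) for Rps4x.
Rpl3: tgtggcggcgagATGgtacgtatgg
Rpl3l: cagggatcggccATGgttagtgggc
Rpl4: cctctccccgtcATGgtgagtggag
Rpl5: ctattccgcaggATGgtgagtgggc
Rpl14: agcgccgccaacATGgtgagtgtgt
Rps26: cttggctccaagATGgtgagtgtcg
Rps18: tgtgccgccgccATGgtaagagcgg
Rps4x: cctagcgcagccATGgtaaggcagg
In all 20 genes the letters after the ATG were GT, the usual start of an intron. The paralogs Rpl3 and Rpl3l, on different chromosomes, shared this arrangement.

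Counting to both sides of the junction, the start codon began within 10 bases of it in 46 of 78 genes (59.0%), against 0 of 75 mitochondrial ribosomal protein genes and 8.61% of other coding genes. In 30 genes up to 10 coding bases lay in the first exon, among them Rps6, the substrate of S6 kinase, with 6, and Rpl11, which binds Mdm2, also with 6. In 16 genes the first exon held none, and at most 10 untranslated bases of the second exon came before the ATG. The second exon began with the ATG itself in Rpl31, Rpl6, Rps10 and Rps19, and 1 base after its start in Rpl9 and Rplp2, among others. The limit of 10 bases was chosen after the values were seen. Far from the junction were Rpl24 (310 coding bases in the first exon of the far-reaching model), Rps2 (177), Rps15a (133) and Rpl18, where 1989 untranslated bases of the second exon came first. Only in Rpl39l did the codon lie in a later exon.

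**Figure D3:**
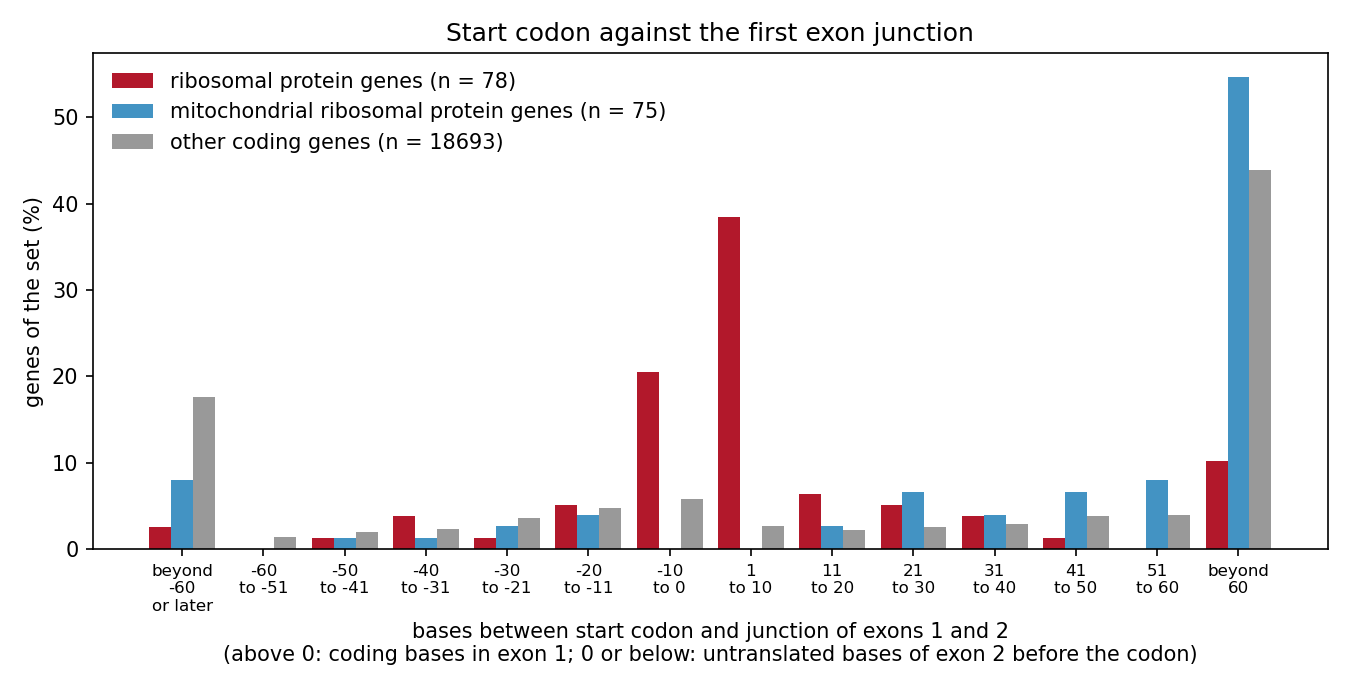
Share of genes (y axis, percent of each set) by the distance in bases between the start codon and the junction of exons 1 and 2 (x axis), with coding bases of the first exon counted above 0 and untranslated bases of the second exon at 0 or below, for ribosomal protein genes (n = 78), mitochondrial ribosomal protein genes (n = 75) and other coding genes (n = 18693). In the bins next to the junction stand 30 and 16 ribosomal protein genes and no mitochondrial ribosomal protein gene.

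The annotated starts were then read for the TOP letters, defined as C at the first base followed by 4 pyrimidines (C or T in the DNA). They were found in 9 of 81 genes (11.1%), against 2 of 75 mitochondrial ribosomal protein genes (2.67%) and 1.98% of other coding genes. Of the 9, 7 were small subunit genes (Rps13, Rps15a, Rps18, Rps2, Rps21, Rps28 and Rps9) and 2 were large subunit genes (Rpl14 and Rpl32). The first base was C in 20 of 81 genes (24.7%), against 15.4% of other coding genes. Windows of 10 bases before and 15 bases from the annotated start are printed below for 8 of the genes with the letters and for Rplp1, in which the run began with T, with the unbroken pyrimidine run from the start in capitals. They are Rpl14 at chr9:120480624-120480648 (plus strand), Rpl32 at chr6:115758751-115758775 (minus), Rps13 at chr7:123477633-123477657 (minus), Rps18 at chr17:34092594-34092618 (minus), Rps2 at chr17:24857045-24857069 (plus), Rps21 at chr2:179992072-179992096 (plus), Rps28 at chr17:33961429-33961453 (minus), Rps9 at chr7:3655630-3655654 (plus) and Rplp1 at chr9:61762331-61762355 (minus).
Rpl14: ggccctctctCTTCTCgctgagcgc
Rpl32: gccgccgcctCTTCCTTCTTCCTCg
Rps13: acctcgttctCTCTTTgctgccaga
Rps18: cttccgctctCTCTTCCacaggagg
Rps2: gcgcctccctCTTCTTCTTCTTCgg
Rps21: cgaggacccgCCCTCCTgcccaata
Rps28: gctcacgtgaCTCCTCTCCgccaga
Rps9: cgccttgtctCTCTTTgtctcgggc
Rplp1: gtatatgatcTTTTCCTCagctgcc
The runs were of different length: 14 pyrimidines in Rpl32 and 13 in Rps2, but 6 in Rpl14, Rps13 and Rps9. In Rpl14, Rpl32, Rps13, Rps18, Rps2 and Rps9 the bases just before the annotated start were pyrimidines too.

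The count depended on which start was read. With any annotated start of a gene 25 of 81 genes (30.9%) had the letters, against 5 mitochondrial ribosomal protein genes (6.67%) and 5.72% of other coding genes. Genes with more transcripts offer more starts to read. The median was 4 transcripts per gene, against 3 in mitochondrial ribosomal protein genes and 2 in other coding genes. The part this had in the shares was not tested. With a run beginning within 5 bases of the representative start the count was 23 genes (28.4%), against 17 (22.7%) and 17.4%, so that here the share was near that of mitochondrial ribosomal protein genes. RefSeq starts of the later GRCm38 build, held for 64 of the 82 genes, gave 14 genes (21.9%), against 2.66% of other coding genes. Absence of the letters says only that they were not at these annotated bases.

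Many transcripts of ribosomal protein genes carried no protein identifier. Of 319 transcripts, 153 (48.0%) had none, against 116 of 248 (46.8%) in mitochondrial ribosomal protein genes and 30.1% in other coding genes. The share was thus close to that of the mitochondrial set. At least 1 such transcript was found in 47 of 82 genes (57.3%), against 47 of 76 (61.8%) and 34.8%. GENCODE M1 listed all 319 transcripts. It gave 92 of the 153 (60.1%) as retained introns, against 41.4% in mitochondrial ribosomal protein genes and 47.7% in other coding genes, and 55 (35.9%) as processed transcripts, against 56.9% and 49.2%. Transcripts of the nonsense-mediated decay type were 9 of 319 (2.82%), against 3.23% and 4.76%.

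**Figure D4:**
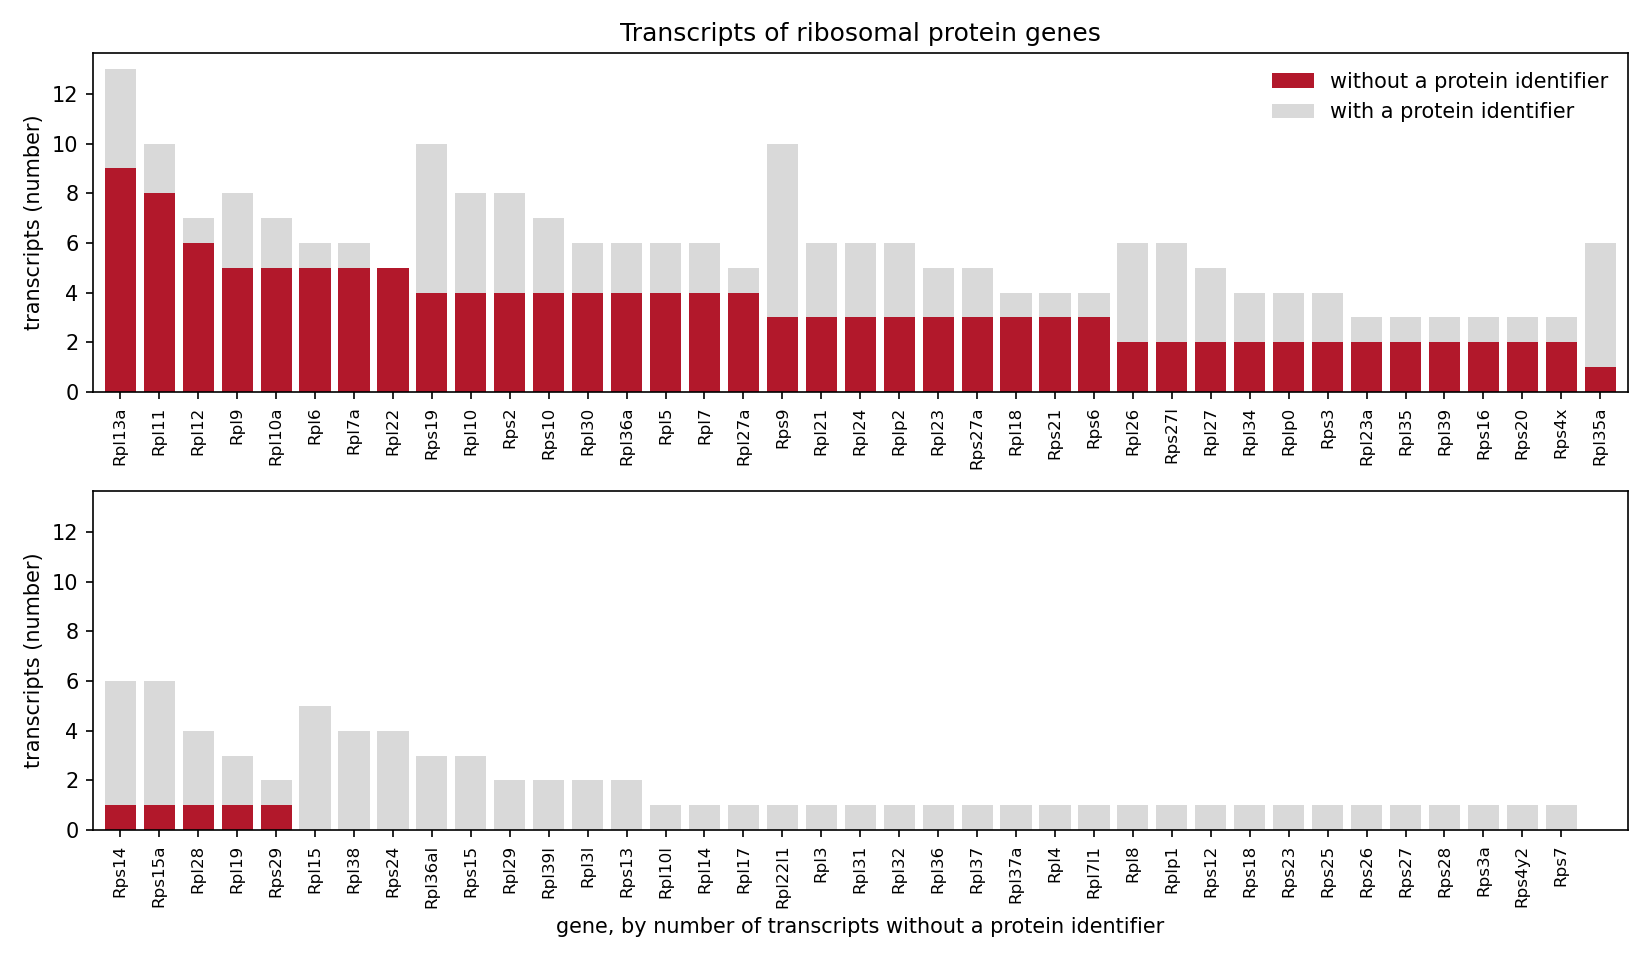
Number of transcripts (y axis) of each of 77 of the ribosomal protein genes (x axis, in 2 rows), split into those without (red) and with (grey) a protein identifier and ordered by the number without one. Rpl13a leads with 9 of 13, Rpl22 has none with an identifier, and 33 of the genes drawn have no transcript without one.

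Rpl13a, a protein also known from interferon-dependent control of translation, had the most transcripts without an identifier, 9 of 13. It was followed by Rpl11 with 8 of 10 and Rpl12 with 6 of 7. In Rpl11 and Rpl12 all of them were processed transcripts, none a retained intron. Rpl10a, Rpl22, Rpl6, Rpl7a and Rpl9 had 5 each. Retained introns made up all 5 in Rpl10a, Rpl6 and Rpl9, and none in Rpl7a. Among these genes Rpl13a had both kinds, 4 of each.

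Rpl22, an RNA-binding protein of the large subunit with a known part in lymphocyte development (chr4:151699976-151708180), was the only member with no protein identifier at all. None of its 5 transcripts carried one, although GENCODE M1 gives 1 of them as protein coding and 4 as processed transcripts. Its exon number and first exon are therefore not among the values above. Rps9 and Rps19 lay at the opposite side, with 7 of 10 and 6 of 10 transcripts coding and with 6 and 5 distinct protein identifiers. In all, 29 of the 82 genes had more than 1 distinct identifier. The share over other coding genes is not given here, so the count is not read as particular to these genes.

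Paralogs carried fewer such transcripts, 2 of 17 (11.8%), both of Rps27l, than the core genes, 151 of 302 (50%). A single transcript was annotated for 26 of 82 genes (31.7%), against 20 of 76 mitochondrial ribosomal protein genes (26.3%) and 43.3% of other coding genes. Among other coding genes of more than 1 exon the share was 35.1%. Among the 26 ribosomal protein genes were Rpl3, Rpl4, Rpl17, Rps12 and Rps3a, each of which held more than 1 snoRNA.

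The introns of ribosomal protein genes held 37 snoRNA transcripts, in 22 genes. That is 26.8% of the 82 genes, against none of 76 mitochondrial ribosomal protein genes and 1.02% of other coding genes. Of 312 snoRNAs that lay within introns of coding genes on their strand, these 37 made up 11.9%. By intron, 37 of 437 distinct introns of coding transcripts (8.47%) held a snoRNA, against 0.148% in other coding genes, and no intron held more than 1. The hosts were 15 large subunit genes with 27 snoRNAs and 7 small subunit genes with 10. All were core genes. By name 23 were of box C/D and 11 of box H/ACA, and 3 (snoU83B.1, Rnu73a and Rnu73b) had no class in the name.

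**Figure D5:**
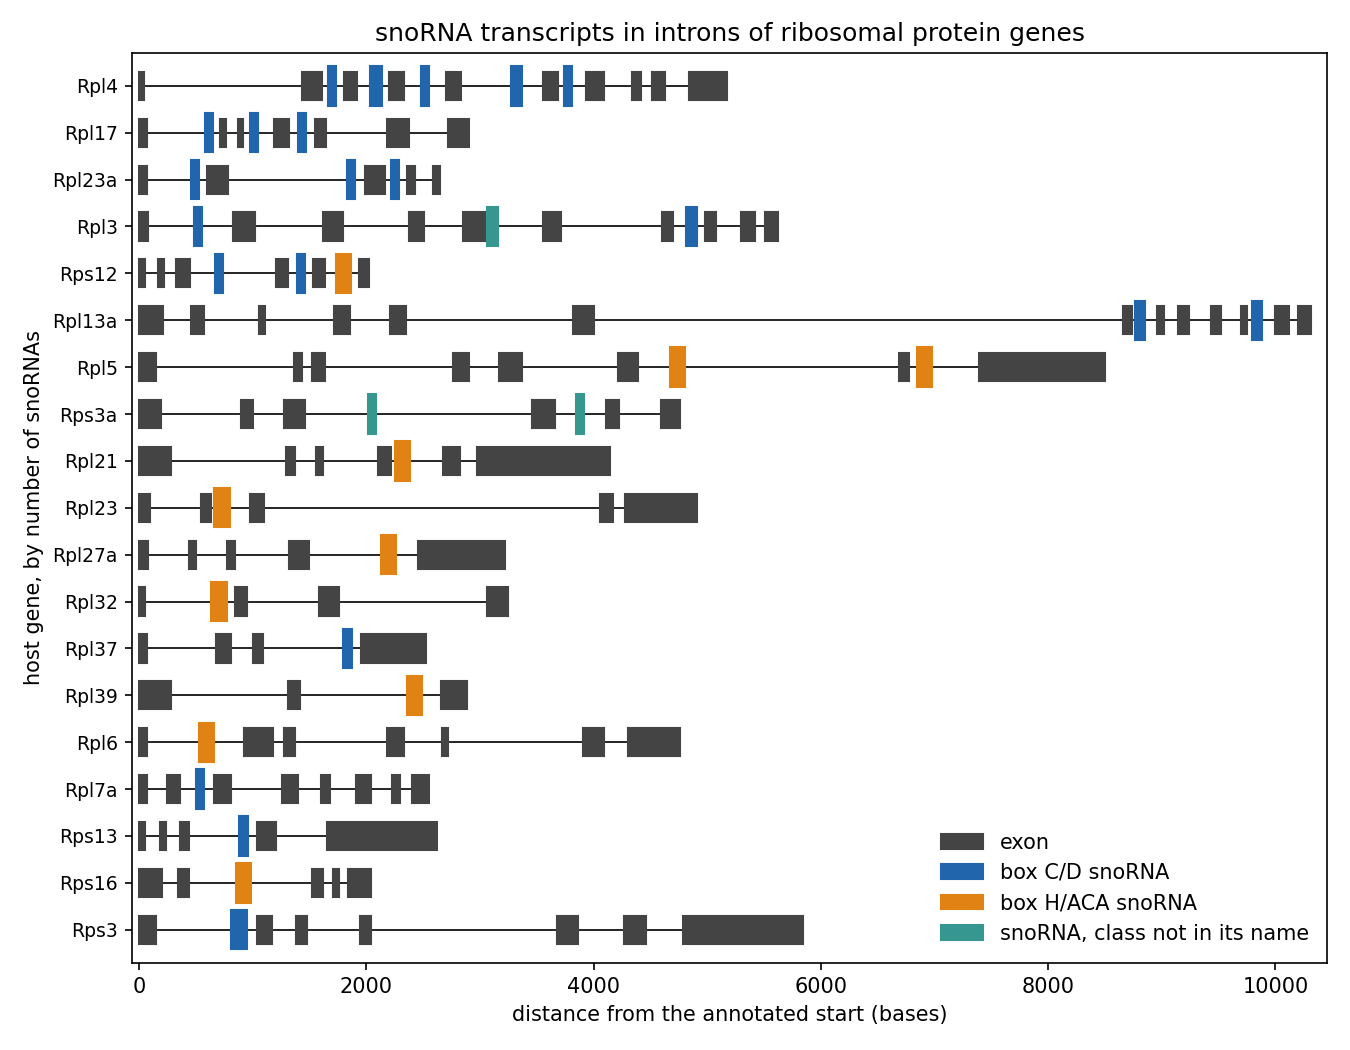
Maps of 19 of the host genes (rows, by number of snoRNAs), drawn to scale as distance from the annotated start of the representative transcript (x axis, bases), with exons in grey and snoRNAs coloured by the class in their name. Rpl4 holds 5 snoRNAs in neighbouring introns, and in most rows the box C/D snoRNAs stand close before an exon.

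Rpl4 was the host of most snoRNAs. Its introns 2 to 6 of 9 held 1 box C/D snoRNA each, in the order SNORD18.3, Snord16a, SNORD18.2, SNORD16.1 and SNORD18.1, so that members of 2 snoRNA families alternated along the gene. They lie on the plus strand at chr9:64022855-64022922, chr9:64023230-64023328, chr9:64023678-64023748, chr9:64024468-64024566 and chr9:64024930-64025000. They are printed to show the likeness within each family, 5′ to 3′, with the box C letters TGATGA and the box D letters CTGA in capitals where both stood in the first 20 and the last 15 bases.
SNORD18.3: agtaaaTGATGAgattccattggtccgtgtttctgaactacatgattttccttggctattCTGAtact
SNORD18.2: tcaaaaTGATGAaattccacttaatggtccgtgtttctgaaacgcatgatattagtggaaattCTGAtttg
SNORD18.1: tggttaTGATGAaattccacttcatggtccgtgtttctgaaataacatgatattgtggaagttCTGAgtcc
Snord16a: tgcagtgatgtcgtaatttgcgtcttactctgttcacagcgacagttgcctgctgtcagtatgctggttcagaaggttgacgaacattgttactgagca
SNORD16.1: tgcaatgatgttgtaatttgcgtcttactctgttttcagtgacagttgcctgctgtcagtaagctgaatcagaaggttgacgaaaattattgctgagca
In a global alignment SNORD18.2 and SNORD18.1 were identical at 59 of 72 positions (81.9%), SNORD18.3 and SNORD18.2 at 52 of 72 (72.2%), and Snord16a and SNORD16.1 at 88 of 99 (88.9%). Over all 311 pairs of the same class among the 37 snoRNAs the median identity was 51.1%. Those without a class in the name were counted here as a class of their own. The distances to the acceptor, the end of the intron, were 78, 62, 150, 181 and 127 bases in the order along the gene.

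The closest pairs lay mostly within the same gene. Of 666 pairs, 13 were more than 65% identical, a limit chosen after the values were seen. Of the 13, 11 were pairs within the same host. Such pairs can come only from the 8 hosts of 2 or more snoRNAs. Not all of their pairs passed the limit: Snord4a and Snord42b of Rpl23a were 57.3% identical. Pairs within other host genes were not compared. In Rpl5, which binds Mdm2 together with Rpl11, the box H/ACA snoRNAs SNORA66.1 (intron 6, chr5:108334196-108334327, plus strand) and SNORA66.2 (intron 7, chr5:108336364-108336495) were identical at 125 of 132 positions (94.7%), the highest of all pairs. They are printed with the ACA that stands 3 bases before the 3′ end in capitals.
SNORA66.1: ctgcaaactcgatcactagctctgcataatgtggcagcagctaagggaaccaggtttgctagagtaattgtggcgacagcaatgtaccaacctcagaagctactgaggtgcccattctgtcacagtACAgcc
SNORA66.2: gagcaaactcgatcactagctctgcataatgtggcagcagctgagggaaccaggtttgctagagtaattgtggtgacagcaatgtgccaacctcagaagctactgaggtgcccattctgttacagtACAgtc
Their introns were 2294 and 619 bases long, and the snoRNAs ended 1880 and 420 bases before the acceptor.

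Rpl17, which lies near the exit of the tunnel, held 3 copies of SNORD58 in introns 1, 3 and 4, identical to each other at 75.8% to 84.8% of positions. In Rpl23a, the docking site of the signal recognition particle, Snord42b lay in intron 1, Snord4a in intron 2 and Snord42a in intron 3, with 68.6% identity between Snord42a and Snord42b. In Rps3a, Rnu73b in intron 3 and Rnu73a in intron 4 were 73.2% identical. Neither is named as box C/D, but both held its letters (chr3:85944540-85944610 and chr3:85942713-85942780, minus strand).
Rnu73b: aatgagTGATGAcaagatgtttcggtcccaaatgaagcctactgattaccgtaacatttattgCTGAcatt
Rnu73a: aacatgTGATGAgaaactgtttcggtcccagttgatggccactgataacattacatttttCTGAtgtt
Rpl3 held Snord43 in intron 1, snoU83B.1 in intron 5 and Snord83b in intron 7, of which snoU83B.1 and Snord83b were 69.4% identical. Rps12 held snoRNAs of both classes, SNORD101.1 in intron 3, Snord100 in intron 4 and Snora33 in intron 5.

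Rpl13a held Snord32a and Snord35a. In the 13-exon model they lie in introns 7 and 11. In the coding models of 8 exons that GENCODE M1 names Rpl13a they lie in introns 2 and 6. Snord35a lies at chr7:52381716-52381805 (minus strand), ending 92 bases before the acceptor. It did not hold TGATGA, so no letters are in capitals.
Snord35a: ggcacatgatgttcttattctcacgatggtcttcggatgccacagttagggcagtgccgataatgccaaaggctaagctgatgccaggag
Snord32a and Snord100 of Rps12, in different hosts, were 65.1% identical. Neighbouring members within 100000 bases of each other included Rps2 and Rpl3l on chromosome 17 (5899 bases apart) and Rps29 and Rpl36al on chromosome 12 (23544 bases apart).

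The other 14 hosts held 1 snoRNA each. Among them were box H/ACA snoRNAs in Rpl21 (SNORA27.1), Rpl23 (Snora21), Rpl27a (SNORA3.2), Rpl32 (Snora7a), Rpl39 (Snora69), Rpl6 (SNORA42.3) and Rps16 (SNORA40.4). Box C/D snoRNAs lay in Rpl37 (Snord72), Rpl7a (SNORD24.2), Rps13 (Snord14a) and Rps3 (Snord15a), among others. Other transcripts of the host had an exon over 3 of the 37 snoRNAs (Snord32a, SNORA27.1 and Snord42b). On the opposite strand, Snora78 lay within an intron of Rps2 and is not in the count.

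Box C/D snoRNAs lay at a short distance from the acceptor. In ribosomal protein introns the distance from the snoRNA to the acceptor had a median of 84 bases (interquartile range 72 to 117, range 62 to 465, n = 23), against 321.5 bases (92.25 to 930.5, n = 50) in other coding genes. A distance of 60 to 100 bases was found for 15 of 23 (65.2%), against 14 of 50 (28.0%). The farthest in a ribosomal protein gene was SNORD101.1 of Rps12, at 465 bases. Box H/ACA snoRNAs lay farther off and spread more widely, with a median of 191 bases (range 49 to 1880, n = 11), against 2424 bases (n = 176) in other coding genes. The introns differed too. With a box C/D snoRNA their median length was 295 bases in ribosomal protein genes, against 861.5 bases in other coding genes. With a box H/ACA snoRNA it was 795 bases, against 5096.5 bases. For both classes, part of the difference in distance cannot be told apart from that of intron length.

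Within the host genes the introns with a snoRNA had a median length of 459 bases (interquartile range 275 to 795, n = 37), against 271 bases (171 to 602) in the 81 other introns of the same genes. The ranges overlapped widely, from 193 to 2294 bases with a snoRNA and from 82 to 4659 bases without, and an intron with a snoRNA includes the bases of the snoRNA itself. The intron of 4659 bases lies in the longest coding model of Rpl13a, which extends beyond the other coding models of the gene. Further introns of that model are also among the 81. The longest intron held a snoRNA in 10 of the 22 hosts, where 37 introns held a snoRNA and 81 did not. In Rpl4 the longest was the first intron, of 1390 bases, which held none. The snoRNAs themselves ran in length from 64 bases in Snord43 to 148 bases in Snord15a. The snoRNA lay in the first intron in 6 cases and in the last in 6. Host genes had a median of 6 exons, against 5 in the other 59 members, and their spans were close, with medians of 3063 and 3084 bases.

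Where the box letters stood, they largely followed the classes in the names. The letters TGATGA and CTGA stood in their windows in 14 of 23 box C/D snoRNAs (60.9%) and in none of the 11 of box H/ACA, against 71.3% and 0.0994% over all 296 and 1006 snoRNA transcripts of these classes in the models. ACA stood 3 bases before the 3′ end in 10 of 11 box H/ACA snoRNAs (90.9%), against 23.3% over all of that class. SNORA40.4 of Rps16 was the exception. Of box C/D, SNORD101.1 held these letters as well. Only exact letters were searched, so their absence from a window does not show that a snoRNA lacks the box.

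Genes of the pathway outside the name rule shared some of these features. Among ribosomal proteins with other names, Rpsa, the laminin receptor and small subunit protein, held 3 snoRNAs (SNORA62.1, SNORA73.1 and Snora62), while Fau, a fusion with a ubiquitin-like domain, held none. In both the start codon lay outside the first exon. Of 15 translation genes known or listed for TOP mRNAs, 4 (26.7%) held snoRNAs, a share near the 26.8% of the ribosomal protein genes. By intron of coding transcripts the share was lower, 3.03% against 8.47%. Eef1b2, a subunit of the elongation factor exchange complex, held 2, and Eef2, the translocase of elongation, Nap1l1 and Tpt1 held 1 each. The TOP letters stood at the annotated start of 4 of the 15 (Eif3f, Eif3h, Gnb2l1 and Pabpc1). This share of 26.7% was above the 11.1% of the ribosomal protein genes. These genes had a median of 10 exons and a median first exon of 191 bases. The arrangement with ATG as the end of the first exon was found in Eef2, which had 3 coding bases there.

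The models also named copies of the members. There were 140 genes whose name marks a pseudogene of 1 of 50 members, and 132 of them had a single exon. A protein identifier was carried by 47 of the 140, so that these 47 are counted among the other coding genes. Rpl21 had the most, 14, followed by Rpl30 with 9, Rpl7a with 8 and Rpl23a with 7. Reads of such a parent gene can match its copies, which the models hold at loci of their own. The members themselves were spread over 19 chromosomes, with 14 on chromosome 7, 8 on chromosome 17 and 7 on chromosome 11.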

How the data were processed

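The deposited data analysed here are a single set of gene models in GTF format. The authors aligned reads of polyadenylated RNA with TopHat. The models are those of Ensembl for NCBIM37 (mm9) in the combined form that the Cufflinks package writes, and CASAVA and Cuffdiff are named in the processing notes too. Their versions are not stated in the sources consulted. The file holds exon positions (unit: other), the deposited start and end in bases, with names, biotypes and protein identifiers, and 0 columns of values per sample. Every transcript had the class code for a complete match to the reference, so the models are the reference annotation and do not show which transcripts the pools expressed.

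Transcripts were rebuilt from 624665 exons. A snoRNA was counted where its biotype was snoRNA and it lay whole inside an intron of a member on the same strand, and distances used the shortest such intron. Coding starts and transcript types came from GENCODE M1, which held 316 of the 319 transcripts with identical exons, sequences from the NCBIM37 genome, and further starts from RefSeq (GRCm38.p6). Identities used global alignment with a match score of 1, a mismatch of -1, a gap opening of -2 and an extension of -0.5. Python 3.11.15, pysam 0.24.0, numpy 2.4.6 and biopython 1.88 served for the computation. Models of 200 genes were simulated to test member names, exon number, first exon length and transcripts without identifier. They also tested the placement of snoRNAs and the distance to the acceptor, and short made-up sequences tested the start and box letters. All 1060 checks were recovered. Start codon positions, transcript types and alignment identities were not simulated.

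Genes named are members or belong to the lists of pathway genes. Values are given for hosts of several snoRNAs, for the highest and lowest members of the main measures, and for the stalk proteins, Rps27a and the paralogs. The members and lists were chosen with earlier results of these data known. Rpl13 and Rpl41 were not analysed here, and some members enter the counts but are not reported by name or drawn singly. Shares are over all genes of the annotation, so no sampling interval or test was given.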

Additional observations from a re-analysis of the deposited data

How the results depend on the processing

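The annotation has no replicates and no counting error, so its limits lie in the choice of transcript, of start and of the annotation version. The number of members was 74 with the core set only. The median of 5 exons and the counts of 22 hosts and 37 snoRNAs stayed within 1.5 times or 1 SD of the reported values under each alternative run for them. Counts of members starting with C and 4 pyrimidines moved furthest, from 9 to 25 with any annotated start, 23 within 5 bases and 14 with any RefSeq start, and to 7 with transcripts numbered 001. The share of other coding genes with a snoRNA was 1.18% among those of more than 1 exon. The count of members with the start codon in the first exon ran from 44 to 46 over its alternatives. The median first exon ran from 66 to 94.5 bases over its alternatives, and the count of members with the start codon within 10 bases of the junction was 48 and 49. The search of box letters over the whole snoRNA gave 36 of 37 and is uninformative, since ACA stands in nearly every snoRNA. Alternatives using transcripts numbered 001, RefSeq starts, the shortest first exon or the set without Rpl24 and Rpl13a, and those of the junction counts, were chosen after seeing the data. No paired analysis was possible because the deposited models hold no values per pool.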
